A study of Arabidopsis thaliana with 24 samples.

Results

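The first hour of high light (HL) was followed in seedlings of the Arabidopsis mutant *Ch1*, by comparing the 3 libraries taken after HL 1 h with the 3 libraries taken at HL 0 h. These are 6 of the 24 libraries of the series, and all 11166 genes of the HL table were compared. *Ch1* carries a defect in CAO, chlorophyllide a oxygenase, and lacks chlorophyll b; its values for CAO were not analysed here. Seedlings were 2 weeks old, of the Col-0 background, and whole seedlings were used. They had been kept in water on plates for at least 1 h and then moved to fresh water under HL (1000 µE) or low light (LL, 30 µE). The HL and LL series, each with 0, 1, 2 and 4 h and 3 libraries a time, are all *Ch1*, so no wild type stands beside them in this comparison. RNA was read by bulk MARS-seq from the 3' ends of transcripts, so that a count does not grow with gene length. Levels are given as CPM, the count of a gene per 1000000 counts of its library, after scaling by the trimmed mean of M-values (TMM).

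Chlorophyll b is needed to build the antenna complexes that feed light to photosystem II. In its absence excited chlorophyll is poorly quenched, and *Ch1* is known for releasing singlet oxygen (1O2) in strong light. Plants in strong light are known to lower antenna transcripts, to raise photoprotective proteins such as ELIP1, and to switch on heat shock factors (HSFs), which bind repeats of GAA in promoters and turn on chaperone genes. Jasmonate genes and early stress transcription factors are known to answer quickly to wounding and touch, and many of their transcripts are short-lived.

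The 6 libraries held 1617051 to 2070855 counts each. A gene was called when its change was at least 2-fold and its adjusted p was under 0.05 in edgeR's quasi-likelihood test, with Benjamini-Hochberg adjustment over all 11166 genes. By that rule 442 genes were higher at HL 1 h (3.96%) and 564 were lower (5.05%), 9.01% in all, and the median log2 fold change over all genes was 0.00. Genes called higher took 2.58% of the counts at 0 h and 7.26% at 1 h, while genes called lower took 11% at 0 h and 4.12% at 1 h. Changes of at least 4-fold were called for 103 genes higher and 132 lower, and of at least 16-fold for 7 and 12. The 10 most abundant genes held 15% to 16% of the counts of the 0 h libraries and 10.6% to 12.3% of those at 1 h. HL 0 h replicate 2 stood somewhat apart, with a Pearson correlation of log2 levels across genes of 0.959 and 0.958 with the other 0 h libraries, which correlated at 0.974 with each other. The sources used here do not say whether the 3 libraries came from separate cultures, so p-values measure only the spread between these libraries.

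The lists were chosen with earlier results of these data known, so their ranking is a description and no test. Among lists with at least 8 members in the table, the largest shares that rose were in heat shock proteins and their factors and in detoxification. The largest shares that fell were in jasmonate genes, cold-regulated genes and CBF factors, the light-harvesting antenna, hypoxia genes and rapid stress transcription factors. The plot of gene lists gives the share of each list called in either direction. Counts of called members below stand beside 3.96% of all genes called higher and 5.05% called lower. Counts at an unadjusted p under 0.05 are given without a share over all genes, which was not counted. That share cannot be smaller than the one at an adjusted p under 0.05 with no fold limit. The latter held 922 higher and 1046 lower of the 11166 genes. The unadjusted counts alone therefore do not show that a list stands above all genes.

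**Figure D1:**
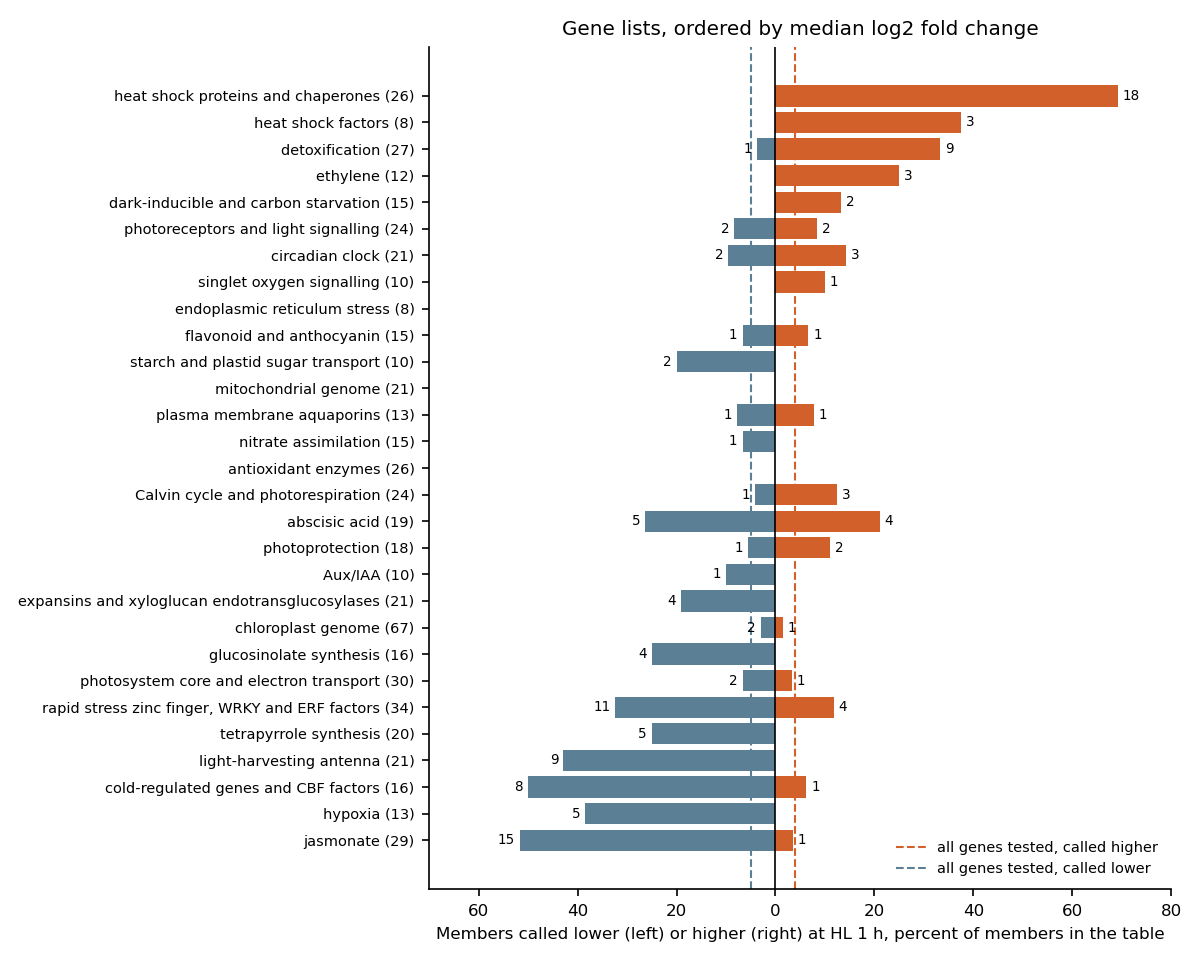
Share of the members of each gene list called lower (blue, left) or higher (orange, right) at HL 1 h, in percent of the members in the table, whose number stands in brackets. Numbers at the bars are genes, dashed lines mark the shares over all 11166 genes (3.96% and 5.05%), and heat shock proteins stand at the top with 18 of 26 higher while jasmonate genes stand at the bottom with 15 of 29 lower. The lists were chosen with earlier results of these data known.

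Promoter stretches of 6 genes are shown first, because they carry the short motifs that the values below are set beside. Each is the 200 bases before the annotated start of the gene in RefSeq's TAIR10.1 annotation, 5' to 3' on the strand of the gene, and none overlaps another annotated gene. Capitals mark matches on either strand. In HSP17.4, a small heat shock protein (chr3:16984868-16985067, minus strand), they mark the heat shock element GAANNTTC or TTCNNGAA, in 4 matches that overlap in pairs. In EXLA3, an expansin-like gene (chr3:16892502-16892701, plus strand), and DIC2, a mitochondrial dicarboxylate carrier (chr4:12686259-12686458, plus strand), they mark the rapid stress element CGCGTT, with 2 matches and 1 match. In LTI78, a cold-regulated gene (chr5:21240517-21240716, plus strand), they mark 3 copies of the dehydration and cold element CCGAC. In ELIP1, the early light-induced protein (chr3:8085670-8085869, minus strand), they mark a G-box CACGTG and an I-box GATAAG, and in SEN1, a dark-inducible gene (chr4:16944678-16944877, plus strand), 2 copies of the I-box.
HSP17.4: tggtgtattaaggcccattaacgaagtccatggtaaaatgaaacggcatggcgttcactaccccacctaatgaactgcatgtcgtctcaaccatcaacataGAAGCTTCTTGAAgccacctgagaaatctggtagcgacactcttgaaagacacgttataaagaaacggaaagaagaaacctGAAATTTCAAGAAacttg
EXLA3: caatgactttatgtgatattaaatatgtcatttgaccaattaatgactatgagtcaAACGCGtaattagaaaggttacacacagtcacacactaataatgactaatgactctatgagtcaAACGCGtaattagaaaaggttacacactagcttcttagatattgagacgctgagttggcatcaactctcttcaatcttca
DIC2: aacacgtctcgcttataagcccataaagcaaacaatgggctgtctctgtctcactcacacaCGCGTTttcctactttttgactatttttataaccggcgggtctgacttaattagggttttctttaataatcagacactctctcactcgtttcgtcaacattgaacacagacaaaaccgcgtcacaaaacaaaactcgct
LTI78: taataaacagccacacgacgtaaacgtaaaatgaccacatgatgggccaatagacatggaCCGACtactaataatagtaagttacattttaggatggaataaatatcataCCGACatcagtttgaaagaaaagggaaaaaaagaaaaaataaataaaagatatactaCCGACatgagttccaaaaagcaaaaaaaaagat
ELIP1: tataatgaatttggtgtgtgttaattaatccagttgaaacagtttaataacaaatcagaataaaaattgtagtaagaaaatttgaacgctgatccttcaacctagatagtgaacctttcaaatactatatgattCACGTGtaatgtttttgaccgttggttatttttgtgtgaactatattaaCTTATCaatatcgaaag
SEN1: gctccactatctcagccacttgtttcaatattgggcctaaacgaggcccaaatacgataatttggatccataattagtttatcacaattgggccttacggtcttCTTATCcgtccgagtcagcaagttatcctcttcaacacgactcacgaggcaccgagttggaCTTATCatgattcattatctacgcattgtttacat

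Of 26 heat shock proteins and co-chaperones in the table, 18 were called higher and 0 lower, with a median log2 fold change of 1.74. By DESeq2 the counts were also 18 and 0, and at an unadjusted p under 0.05 they were 20 and 0. With no fold limit 20 were higher at an adjusted p under 0.05, beside 922 of all 11166 genes. The summed level of the 26 genes went from 4046 to 4507 CPM in the 0 h libraries to 8701 to 9496 CPM at 1 h. Of 8 heat shock factors and cofactors in the table, 3 rose and the other 5 were not called. MBF1C, a coactivator of heat tolerance, stood at 25.9, 20.1 and 18.4 CPM at 0 h and at 318, 444 and 366 CPM at 1 h. The 3 libraries at 1 h all lay far above those at 0 h, and the log2 fold change of 4.12 ± 0.18 (SE, edgeR's quasi-likelihood adjusted p = 3.1e-11) was the largest among genes of at least 20 CPM whose libraries did not overlap. HSFA2, the factor that sustains the heat response, was at 1.65, 1.43 and 0.559 CPM before and at 7.41, 11 and 12.3 CPM after 1 h, a log2 change of 3.03 ± 0.49 (adjusted p = 0.00016). HSFB2B, a repressor of the HSF class B, rose by 2.31 ± 0.30 on the log2 scale (adjusted p = 1.4e-05), whereas HSFB1 was at 163 to 211 CPM and 194 to 320 CPM, with overlapping libraries, and was not called (log2 change 0.44, adjusted p = 0.11).

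Among the chaperones, HSP70 (AT3G12580), an inducible cytosolic member of the family, rose from 154, 86.8 and 78.3 CPM to 1011, 1221 and 1136 CPM. Its log2 fold change was 3.396 ± 0.20 (adjusted p = 1.3e-09 in edgeR's quasi-likelihood test), and every library at 1 h was above 1000 CPM. The small heat shock gene AT1G07400, annotated as an HSP20-like chaperone, stood at 17.61, 16.5 and 16.2 CPM at 0 h and at 211, 207 and 279 CPM at 1 h (log2 change 3.79 ± 0.27, adjusted p = 9.3e-09). HSP17.4, whose promoter is printed above, rose from 13.2, 18.6 and 10.06 CPM to 124, 148 and 145 CPM (3.34 ± 0.22, adjusted p = 5.3e-09). In none of these genes did a 0 h library reach any library at 1 h. The largest changes, MBF1C among them, were named only where libraries did not overlap, so this separation is no added support. Over all genes, 16.2% had libraries at 1 h wholly above those at 0 h. HOP3, which links HSP70 to HSP90, rose by 3.10 ± 0.24 and HSP101, the disaggregase needed for heat tolerance, by 2.74 ± 0.21 on the log2 scale (adjusted p = 2.5e-08 and 2.2e-08 in the same test). The DNAJ gene AT2G20560 rose by 3.01 ± 0.19, and HSP17.6II, a small heat shock protein of class II, by 2.69 ± 0.32. AT5G51440, another HSP20-like gene, summed to 2 counts before and 62 after, a ratio of 26.9 with a 95% counting interval of 7.13 to 227. Small heat shock genes and cytosolic HSP70 genes are families of close copies, and reads from shared 3' ends could be split between them.

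The chaperones that were not called included HSC70-1. This gene, a constitutive cytosolic HSP70, stood at 3187, 3128 and 2943 CPM at 0 h and 5204, 5512 and 5163 CPM at 1 h. Its libraries did not overlap and its adjusted p was 4.3e-06 in edgeR's quasi-likelihood test, but its log2 change of 0.78 ± 0.09 was under 2-fold. None of the 8 genes of endoplasmic reticulum stress in the table was called by edgeR's quasi-likelihood test or by DESeq2, with 4 higher and 0 lower at an unadjusted p under 0.05. BIP1, the chaperone of the endoplasmic reticulum, was at 706, 610 and 803 CPM and at 937, 1108 and 1249 CPM (log2 change 0.64, adjusted p = 0.0023). The median over these 8 genes was 0.28, against 1.74 for the heat shock proteins.

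**Figure D2:**
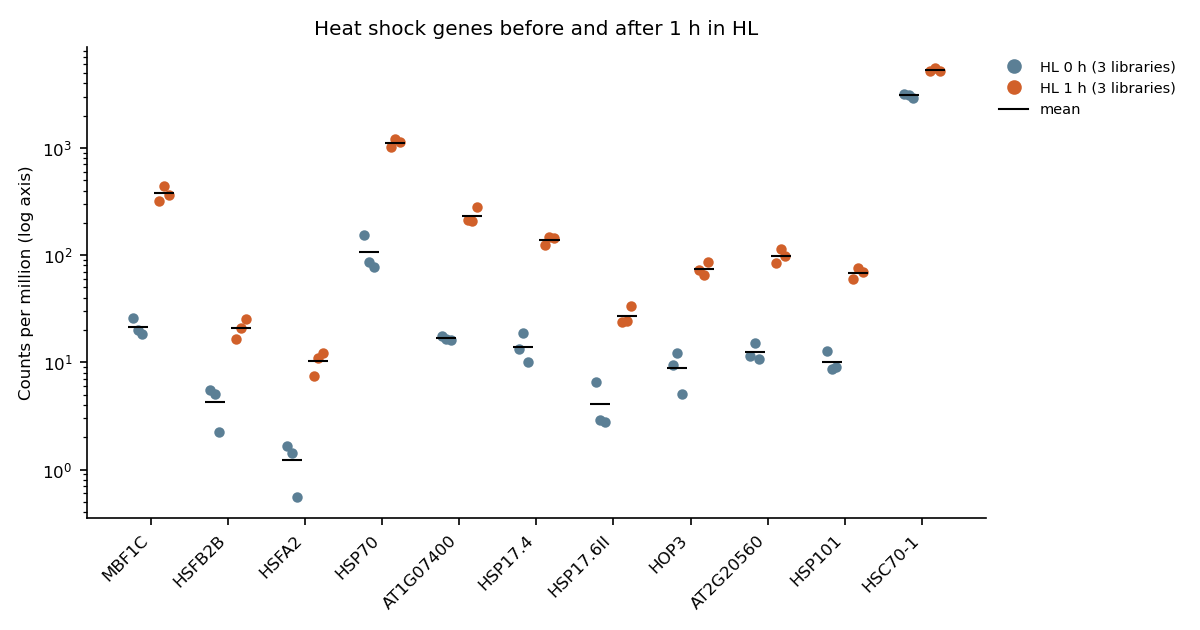
Level of heat shock genes in each HL 0 h (blue) and HL 1 h (orange) library, in CPM on a log axis, with the mean of 3 libraries as a line. In each gene shown the 3 libraries at 1 h lie above the 3 at 0 h, from HSFA2 at 7.41 to 12.3 CPM after 1 h to HSP70 at 1011 to 1221 CPM and HSC70-1 at 5163 to 5512 CPM. Genes named for the largest changes were chosen for such separation.

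Of the 21 genes of the light-harvesting antenna, which bind the chlorophylls a and b, 9 were called lower and 0 higher. The median log2 change was -0.77. DESeq2 gave 9 and 0, and an unadjusted p under 0.05 gave 18 and 0. With no fold limit 16 were lower at an adjusted p under 0.05, beside 1046 of all 11166 genes. Libraries at 1 h lay wholly under those at 0 h in 17 of the 21, beside 17.5% of all genes. The summed level of the 21 genes went from 147620 to 176570 CPM at 0 h to 75268 to 89694 CPM at 1 h. CAB2, an LHCB1 gene of photosystem II, went from 12489, 13592 and 11751 CPM to 1482, 1337 and 995 CPM, a log2 change of -3.31 ± 0.18 (edgeR's quasi-likelihood adjusted p = 9.5e-10). CAB3, its neighbour and near copy, went from 12610, 13369 and 12594 CPM to 4156, 4291 and 3446 CPM (log2 change -1.70 ± 0.17). LHB1B2, another LHCB1 gene, was at 27079, 35387 and 31261 CPM before and at 21251, 20298 and 19190 CPM after, a log2 change of -0.63 ± 0.12 that was under 2-fold. The 3 genes code for almost the same protein and had different log2 changes, and where they share 3' sequence their counts are not fully separate. LHCB2.1 and LHCB2.2, also of photosystem II, fell by 2.23 ± 0.13 and 2.39 ± 0.14 on the log2 scale (adjusted p = 1.3e-09 for each in the same test). The monomeric antenna genes LHCB6 and LHCB4.2 fell by 1.21 ± 0.13 and 1.08 ± 0.11, and LHCA4 of photosystem I by 1.18 ± 0.15.

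Of 30 genes of the photosystem cores and electron transport, 2 fell (6.67%) and 1 rose (3.33%), beside 5.05% and 3.96% of all genes, and the median was -0.48. DESeq2 also gave 2 and 1. Libraries at 1 h lay wholly under those at 0 h in 18 of the 30, beside 17.5% of all genes. At an unadjusted p under 0.05, 21 were lower. With no fold limit 17 were lower at an adjusted p under 0.05, beside 1046 of all 11166 genes. PSBR, a subunit of photosystem II, stood at 26084, 28862 and 24613 CPM at 0 h and at 25175, 22643 and 19750 CPM at 1 h, with overlapping libraries (log2 change -0.24, adjusted p = 0.15 in edgeR's quasi-likelihood test). PSAH2 of photosystem I fell by 1.25 ± 0.23 (adjusted p = 0.00055), and PETE1, a plastocyanin, by 1.08 ± 0.14, with a log2 change of -0.96 without HL 1 h replicate 3. FD1, a leaf ferredoxin, went the other way: it was at 704, 628 and 593 CPM at 0 h and at 1581, 1652 and 1552 CPM at 1 h, a log2 change of 1.31 ± 0.11 (adjusted p = 5.4e-08). In chlorophyll and heme synthesis, 5 of 20 genes of tetrapyrrole synthesis fell and the other 15 were not called (median -0.66). PORB, protochlorophyllide oxidoreductase, fell from 796, 610 and 683 CPM to 242, 297 and 211 CPM (-1.48 ± 0.14, adjusted p = 3.9e-07). The ferrochelatase AT5G26030 fell by 1.59 ± 0.18, the magnesium chelatase subunit GUN5 by 1.26 ± 0.14 and its regulator GUN4 by 1.34 ± 0.29.

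In carbon fixation and photorespiration 3 of 24 genes rose (12.5%) and 1 fell (4.17%), beside 3.96% and 5.05% of all genes, with a median of -0.08. RBCS1B, a small subunit of Rubisco, was at 467, 233 and 442 CPM at 0 h and at 1176, 1107 and 863 CPM at 1 h (log2 change 1.46 ± 0.20, edgeR's quasi-likelihood adjusted p = 3.5e-05). The small subunit gene RBCS3B was at 17287, 17231 and 16002 CPM before and 11082, 12145 and 10103 CPM after, a log2 change of -0.60 ± 0.11 that was under 2-fold. CP12-2, a redox-controlled regulator of the Calvin cycle, rose by 1.22 ± 0.11, and RCA, Rubisco activase, fell by 1.11 ± 0.14. HPR, the peroxisomal hydroxypyruvate reductase, rose by 1.13 (adjusted p = 0.043), a call lost by DESeq2 (1.16, adjusted p = 0.11), without HL 0 h replicate 2 (0.78, adjusted p = 0.13), without HL 0 h replicate 3 (1.25, adjusted p = 0.068), without HL 1 h replicate 1 (0.92, adjusted p = 0.15) and without HL 1 h replicate 2 (1.11, adjusted p = 0.097). HPR was also lower at HL 0 h than at LL 0 h by 1.38 (adjusted p = 0.013): scaled together, it was at 170 to 218 CPM at LL 0 h, 137 to 151 CPM at LL 1 h, 27 to 104 CPM at HL 0 h and 110 to 207 CPM at HL 1 h. RBCS1B and RBCS3B are also near copies.

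Of 18 photoprotection genes 2 were called higher (11.1%) and 1 lower (5.56%), beside 3.96% and 5.05% of all genes, and the median was -0.09. ELIP1 rose from 7.70, 5.02 and 5.03 CPM to 33.6, 27.3 and 18.4 CPM (log2 change 2.12 ± 0.31, edgeR's quasi-likelihood adjusted p = 5.6e-05). SEP2, a stress-enhanced relative of the antenna proteins, rose from 43.5, 46.6 and 66.0 CPM to 172, 152 and 147 CPM (1.59 ± 0.16, adjusted p = 7.8e-07). Both genes code for relatives of the antenna proteins, and in neither did the groups overlap. ABA1, zeaxanthin epoxidase, fell by 1.06 ± 0.16, with log2 changes of -0.98 and -0.97 without HL 0 h replicates 1 and 2. NPQ4 (PsbS), needed for energy-dependent quenching, was at 1933 to 2178 CPM at 0 h and at 1036 to 1268 CPM at 1 h, a log2 change of -0.84 ± 0.11 that stayed under 2-fold.

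Of the 3 singlet oxygen marker genes in the table, all were lower at 1 h, while 1 of the 4 superoxide markers was higher. The median log2 change of the 3 singlet oxygen markers was -1.19 in HL and -0.74 in LL, where 1 was called lower. In LL 0 of 3 superoxide markers found were called. The difference between HL and LL was called for 0 markers of either kind. BAP1, which restrains cell death, was at 120, 184 and 128 CPM before and at 58.2, 54.6 and 76.2 CPM after (log2 change -1.19 ± 0.21, edgeR's quasi-likelihood adjusted p = 0.0005). AT5G64870 fell from 39.1, 56.7 and 36.9 CPM to 6.27, 11 and 8.04 CPM, a change of -2.36 ± 0.33, and AT5G13200 fell by 1.03 ± 0.23. Without HL 0 h replicate 2, the highest of the 0 h libraries for these genes, 1 of the 3 was called, with BAP1 at -0.96 and AT5G13200 at -0.92, and without HL 1 h replicate 2 AT5G13200 was at -0.83. The marker AT3G01830 was not analysed here. FER1, an iron-storage ferritin used as a superoxide marker, rose from 567, 492 and 683 CPM to 1521, 1416 and 1266 CPM (1.27 ± 0.13, adjusted p = 5.9e-07). Over 3 libraries FER4 summed to 2 counts before and 8 after, a ratio of 3.46 with a counting interval of 0.691 to 33.5, and was not called. AT4G21870 was at 8.25 to 11.7 CPM and 5.20 to 6.27 CPM, and MYBL2, a repressor of flavonoid synthesis, at 1.65 to 5.03 CPM and 2.28 to 4.73 CPM; neither was called. Of 10 genes of singlet oxygen signalling in the table, such as EX1, EX2 and MBS1, 1 rose, CYP81D11, a cytochrome P450 whose counts summed to 2 before and 22 after (ratio 9.53, counting interval 2.34 to 83.6), and 2 rose without HL 0 h replicate 1. Of 26 antioxidant enzymes, 0 were called in either direction by edgeR's quasi-likelihood test or by DESeq2. At an unadjusted p under 0.05, 4 were higher and 3 lower. With no fold limit 2 were higher and 0 lower at an adjusted p under 0.05. Without HL 0 h replicate 1 the calls were 1 higher and 1 lower, and without HL 1 h replicate 1 there was 1 higher. CAT3, a catalase, stood at 3981, 4235 and 4828 CPM and at 4454, 4789 and 4862 CPM, with overlapping libraries.

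Of 27 detoxification genes in the table, 9 were higher and 1 was lower, with a median log2 change of 0.76. UGT75B1, a glucosyltransferase, went from 15.4, 17.9 and 10.6 CPM to 99.2, 79.8 and 87.5 CPM (2.61 ± 0.19, edgeR's quasi-likelihood adjusted p = 1.2e-08). UGT73C5, which glucosylates brassinosteroids and xenobiotics, went from 2.75, 1.43 and 2.24 CPM to 30.8, 16.8 and 16.1 CPM (3.22 ± 0.45, adjusted p = 3.4e-05). The related UGT73C1 had no counts before and 21 after, at least 6.06-fold higher when the group at 0 is set to 3 counts; it lies outside the rule for named genes and was chosen after its values were seen. UGT73C genes are close copies whose reads may not be fully separate. GSTF8, an abundant glutathione transferase, rose by 1.07 ± 0.12, from 1034, 872 and 883 CPM to 1823, 1941 and 2104 CPM. GSTU20 fell from 82.5, 81.8 and 106 CPM to 21.1, 9.97 and 16.6 CPM (-2.51 ± 0.40, adjusted p = 0.00014).

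Jasmonate, the wound hormone, was the list with the largest share lower among those with at least 8 members. Of 29 genes, 15 were lower, 1 was higher and 13 were not called, and the median was -1.19. DESeq2 gave 13 lower and 1 higher. Leaving out HL 0 h replicate 3, HL 1 h replicate 2 or HL 1 h replicate 3 gave 2 higher. The genes that fell included genes of synthesis and of breakdown. For synthesis, AOC3, allene oxide cyclase, fell from 151, 193 and 121 CPM to 26.2, 25.7 and 31.7 CPM (-2.46 ± 0.18, edgeR's quasi-likelihood adjusted p = 1.7e-08). OPR3, which makes the direct precursor of jasmonate, fell from 168, 199 and 141 CPM to 37.1, 38.3 and 43.5 CPM (-2.09 ± 0.18). For breakdown, CYP94B3, which oxidises the active hormone, fell from 95.2, 151 and 110 CPM to 27.4, 22.6 and 16.6 CPM (-2.42 ± 0.20, adjusted p = 8.2e-08). The spread within each group was small beside these changes. LOX4 and LOX3, lipoxygenases of the first step that were chosen after their values were seen, went from a mean of 145 to 16.8 CPM and of 104 to 16.7 CPM. The close relative AOC2 did not follow AOC3: it was at 404, 621 and 339 CPM and at 539, 461 and 605 CPM (0.24, adjusted p = 0.42). COI1, the receptor, was the member that rose, from 0 to 2.24 CPM to 7.10 to 11 CPM (2.401 ± 0.54, adjusted p = 0.0036). Scaled with the LL libraries, COI1 was lower at HL 0 h than at LL 0 h by 2.24 on the log2 scale (adjusted p = 0.0069), and was at 6.75 to 8.77 CPM at LL 0 h, 7.06 to 8.01 CPM at LL 1 h and 7.34 to 11.3 CPM at HL 1 h. HL 0 h replicate 2 held the highest level of AOC3, OPR3, CYP94B3, LOX3 and LOX4, and the summed level of the list was 4006, 5207 and 3866 CPM at 0 h; without that library 14 members were lower.

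Of 34 rapid stress transcription factors 11 fell and 4 rose, with a median of -0.57. RRTF1, a redox-responsive ERF, went from 59.97, 119 and 54.2 CPM to 1.71, 2.62 and 3.31 CPM (-4.86 ± 0.37, edgeR's quasi-likelihood adjusted p = 2.5e-08). ERF13 and ERF11 also fell, with log2 changes of -4.12 ± 0.40 and -2.505 ± 0.24, and WRKY40, a regulator of defence, fell from 142, 175 and 115 CPM to 39.9, 38.8 and 40.7 CPM (-1.85 ± 0.17). HL 0 h replicate 2 held the highest 0 h level of RRTF1, ERF13 and WRKY40, as it did of DIC2, UCP5, RAS1 and DDF1 described below; without it 11 members of the list still fell. These falls began from a higher level than in LL: RRTF1, ERF13, WRKY40, RAS1, DIC2, DDF1 and AT5G52020 were higher at HL 0 h than at LL 0 h, by 1.31, 1.40, 1.11, 1.23, 1.12, 1.25 and 1.49 on the log2 scale (adjusted p = 0.00089 to 0.015 in edgeR's quasi-likelihood test). Scaled together, WRKY40 was at 48.6 to 84.1 CPM at LL 0 h and 33.8 to 45.5 CPM at LL 1 h, beside 119 to 178 CPM and 39.98 to 42.1 CPM in HL; its change of -0.81 in LL was under 2-fold, and the difference between HL and LL was not called (-1.03, adjusted p = 0.052). The zinc finger gene ZAT6 went up, from 129, 154 and 124 CPM to 343, 352 and 367 CPM (1.39 ± 0.14, adjusted p = 9.2e-07), as did RAP2.6L, an ERF of wounding, by 1.75 ± 0.17. DIC2 and UCP5, mitochondrial dicarboxylate carriers, fell from 338, 657 and 326 CPM to 34.8, 43.6 and 31.2 CPM (-3.59 ± 0.24) and from 316, 466 and 276 CPM to 38.2, 28.3 and 37.8 CPM (-3.34 ± 0.21). RAS1, a regulator of the abscisic acid and salt responses, fell by 5.72 ± 0.39, AT5G52020, annotated with an integrase-type DNA-binding domain, by 4.96 ± 0.48, and the unnamed AT2G35290 from 184, 212 and 155 CPM to 14.8, 14.2 and 15.6 CPM (-3.62 ± 0.20). Of 21 expansins and xyloglucan endotransglucosylases 4 fell and the other 17 were not called, and the expansin-like EXLA3 went from 53.9, 64.6 and 52.0 CPM to 0.570, 2.1 and 3.78 CPM (-4.62 ± 0.33).

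Of 16 cold-regulated genes and CBF factors, 8 were lower and 1 was higher, with a median of -1.01. DDF1, an AP2 factor of the CBF family, showed the largest fall among genes of at least 20 CPM whose libraries did not overlap: 134, 247 and 147 CPM at 0 h and 4.56, 2.1 and 2.84 CPM at 1 h (log2 change -5.78 ± 0.32, edgeR's quasi-likelihood adjusted p = 2.3e-09). CBF2 itself summed to 77 counts before and 1 after, a ratio of 88.9 with a counting interval of 15.5 to 3557, and CBF1 to 14 counts before and none after, at least 5.39-fold lower; both were chosen after their values were seen. Of the targets of these factors, LTI78 fell from 882, 829 and 741 CPM to 200, 120 and 142 CPM (-2.41 ± 0.19, adjusted p = 2.6e-08) and the dehydrin ERD10 from 1106, 1016 and 815 CPM to 266, 209 and 194 CPM (-2.13 ± 0.16). KIN2 stood at 2310 to 3402 CPM and 1666 to 3809 CPM, with overlapping libraries. COR15B rose by 1.16 (adjusted p = 0.043), a call lost in the DESeq2 test (adjusted p = 0.054), in the fit of only the compared libraries (adjusted p = 0.06) and when leaving out HL 0 h replicate 2 (0.86), HL 0 h replicate 3 (1.20, adjusted p = 0.09), HL 1 h replicate 1 (0.72) or HL 1 h replicate 3 (1.26, adjusted p = 0.057). Without HL 0 h replicate 2, the highest library for DDF1, 7 genes of the cold list were lower. In that list 2 genes were called higher when HL 0 h replicate 1 or HL 1 h replicate 2 was left out.

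Of 13 hypoxia genes 5 fell and the other 8 were not called, with a median of -1.14. ADH1, alcohol dehydrogenase, went from 61.6, 68.1 and 93.4 CPM to 16.0, 15.2 and 19.4 CPM (-2.13 ± 0.29, edgeR's quasi-likelihood adjusted p = 2.8e-05). HRA1, a repressor of the hypoxia response, fell by 2.58 ± 0.48. The count was 3 without HL 0 h replicate 3, in which ADH1 and LBD41 were highest, 3 without HL 1 h replicate 3, and 3 by DESeq2; without HL 0 h replicate 3 LBD41 was at -0.67 and the list's median at -0.67. AT3G10020 of this list was at 922 to 1163 CPM and 1603 to 1778 CPM, a log2 change of 0.71 that was under 2-fold.

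**Figure D3:**
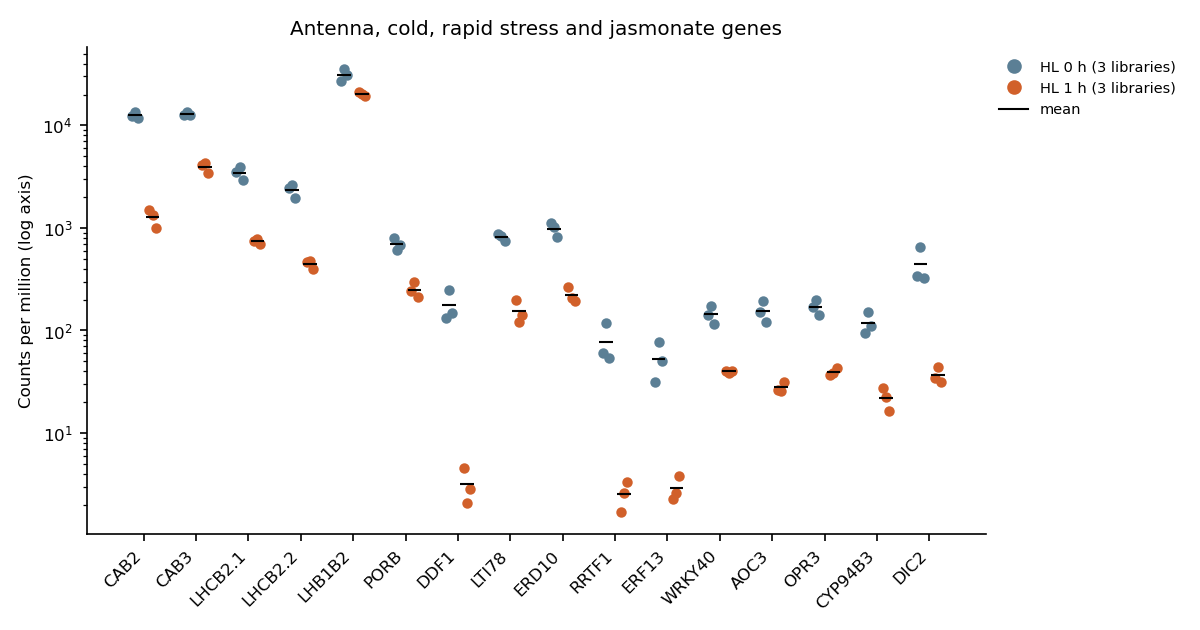
Level of antenna and chlorophyll synthesis genes (CAB2 to PORB), cold genes (DDF1 to ERD10), rapid stress factors (RRTF1 to WRKY40), jasmonate genes (AOC3 to CYP94B3) and DIC2 in each HL 0 h (blue) and HL 1 h (orange) library, in CPM on a log axis, with means as lines. In each gene the 3 libraries at 1 h lie below the 3 at 0 h, from LHB1B2 at 19190 to 21251 CPM after 1 h down to RRTF1 at 1.71 to 3.31 CPM. Genes named for the largest changes were chosen for such separation.

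Of 12 ethylene genes 3 rose and the other 9 were not called (median 0.55): the ethylene-forming enzyme EFE went from 608, 476 and 600 CPM to 1257, 1374 and 1298 CPM (1.22 ± 0.13, edgeR's quasi-likelihood adjusted p = 2e-06), and the receptors ETR2 and ERS2 rose by 1.29 ± 0.19 and 1.22 ± 0.21. Of 19 genes of abscisic acid, 4 rose and 5 fell. ABI1, a phosphatase that blocks its signal, rose from 103, 110 and 116 CPM to 204, 271 and 279 CPM (1.20 ± 0.16), and RD22, a drought gene, fell by 1.19 ± 0.17. These 2 counts were less stable, at 2 rising when HL 0 h replicate 3 or HL 1 h replicate 3 was left out, and at 3 falling by DESeq2 or when HL 0 h replicate 1, HL 0 h replicate 2 or HL 1 h replicate 2 was left out, and at 2 falling after edgeR's filter on low counts. Of 10 Aux/IAA genes, which repress auxin responses, 1 fell (10%, beside 5.05% of all genes), IAA19, by 2.05 ± 0.33. The count was 2 when HL 0 h replicate 3 or HL 1 h replicate 2 was left out.

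Among genes of photoreceptors and light signalling, the factor HY5 rose from 42.4, 53.8 and 59.8 CPM to 176, 193 and 193 CPM (1.85 ± 0.15, edgeR's quasi-likelihood adjusted p = 5.5e-08). PIF4, a phytochrome interacting factor, fell from 74.3, 103 and 63.2 CPM to 47.9, 39.9 and 30.7 CPM (-1.01 ± 0.22), with log2 changes of -0.79 and -0.86 without HL 0 h replicate 2 and without HL 1 h replicate 3. PIF3 rose by 1.07 ± 0.19, and was at 0.99 without HL 1 h replicate 3, and the blue-light receptor PHOT1 fell by 1.12 ± 0.23 and was at -0.99 without HL 1 h replicate 1. In all 2 of 24 genes of this list rose and 2 fell; 5 rose without HL 0 h replicate 1, and 1 fell without HL 0 h replicate 2, HL 1 h replicate 1 or HL 1 h replicate 3. CGA1, a GATA factor of chloroplast development, rose from 3.85, 6.46 and 2.80 CPM to 45, 29.4 and 26 CPM (2.96 ± 0.31, adjusted p = 1.5e-06). Among 21 clock genes 3 rose and 2 fell: JMJD5 went from 12.7, 11.5 and 12.3 CPM to 51.3, 44.6 and 44.5 CPM (1.93 ± 0.18), and ELF4 rose by 1.28 ± 0.14. CHE, a TCP factor that represses CCA1, fell by 1.74 ± 0.16, and CCA1 itself fell by 1.41 ± 0.43, a call lost by DESeq2 (adjusted p = 0.085) and without HL 0 h replicate 1 (adjusted p = 0.057), HL 0 h replicate 2 (adjusted p = 0.13), HL 1 h replicate 1 (adjusted p = 0.07) or HL 1 h replicate 2 (adjusted p = 0.12). In turn 3 fell when HL 0 h replicate 3 or HL 1 h replicate 3 was left out, and 2 rose when HL 0 h replicate 3, HL 1 h replicate 1 or HL 1 h replicate 3 was left out. SEN1, a dark-inducible gene, rose from 32.5, 23.0 and 25.2 CPM to 322, 176 and 78.1 CPM (2.82 ± 0.51, adjusted p = 0.00048), with a wide spread at 1 h. Its level at HL 0 h was lower than at LL 0 h by 2.79 on the log2 scale (adjusted p = 0.0084), and that of JMJD5 was higher by 1.103 (adjusted p = 0.017). Of 15 dark-inducible genes 2 rose and the other 13 were not called.

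High-level genes that rose included GASA1, a gibberellin-regulated peptide at 2709, 3697 and 2485 CPM before and 7392, 6580 and 5221 CPM after (1.11 ± 0.14, or 0.998 without HL 0 h replicate 3), and the DnaJ-domain gene J8 at 1545, 1368 and 1285 CPM and 3135, 2794 and 2935 CPM (1.08 ± 0.13; edgeR's quasi-likelihood adjusted p = 1.4e-05 and 6.7e-06). AZI1, named for induction by azelaic acid, rose by 1.13 ± 0.17, and was at 0.93 without HL 1 h replicate 3. Of 67 genes of the chloroplast genome, 2 were lower and 1 higher, and the latter, ATCG00260, was at 0.550, 0 and 0 CPM before and at 1.14, 0.525 and 651 CPM after, so that it rested on HL 1 h replicate 3 (log2 change 9.68, adjusted p = 0.029, with it and 1.73, adjusted p = 0.90, without it); its adjusted p was also 0.071 to 0.099 without each HL 0 h library. The shares of the chloroplast list, 2.99% lower and 1.49% higher, stood under the 5.05% and 3.96% of all genes. By DESeq2 0 were higher and 1 lower. Of the 2 lower ones, ATCG00650 and ATCG00660, the call of ATCG00660 (-1.37, adjusted p = 0.039) was lost by DESeq2 (adjusted p = 0.13), with the replicate block (adjusted p = 0.055), in the fit of only the compared libraries (adjusted p = 0.053) and without any 1 library other than HL 0 h replicate 3 (adjusted p = 0.064 to 0.17). The count of lower ones became 5 without HL 0 h replicate 3, 3 without HL 0 h replicate 1 and 1 without HL 1 h replicate 1 or 2, and the count of higher ones became 3 without HL 1 h replicate 2 and 2 without HL 1 h replicate 3. Of 21 mitochondrial genes 0 were called by edgeR's quasi-likelihood test or DESeq2, with 2 higher and 1 lower at an unadjusted p under 0.05, and 1 was called higher when HL 0 h replicate 1 or HL 1 h replicate 1 was left out.

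Whole seedlings mix organs, and in bulk RNA fewer cells of a type and less RNA per cell cannot be told apart. Of the 5 leaf mesophyll markers 2 fell, RCA and CAB3, and the summed level of the 5 was 36302 to 43427 CPM at 0 h and 20558 to 26169 CPM at 1 h. RCA and CAB3 were already counted above among carbon fixation and antenna genes, so their fall here is no separate result. Of the 8 root markers found, 0 were called by edgeR's quasi-likelihood test or DESeq2, with 2 higher and 1 lower at an unadjusted p under 0.05, 1 called higher without HL 0 h replicate 3, and a sum of 126 to 165 CPM and 143 to 208 CPM. Epidermal markers summed to 119 to 162 CPM and 91.8 to 124 CPM, with 1 of 4 lower (CER1, a wax synthesis gene), the guard cell marker FAMA was at 25.7 to 31.4 CPM and 22.6 to 28.9 CPM, and SUC2 of phloem companion cells was at 127 to 152 CPM and 101 to 109 CPM. Their part in the results was not tested.

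The first hour in LL was used to see which of these changes also came without HL. By the study's methods the growth light lay between LL and HL. LL was thus also a change of light and no control at growth light. In LL, 374 genes were higher at 1 h than at 0 h (3.42% of 10930) and 766 lower (7.01%), 10.4% in all. Of the genes called in HL, 183 higher ones were also higher in LL, 41.4% of the HL list and 48.9% of the LL list, and 299 lower ones were also lower, 53.0% and 39.0%. The HL and LL comparisons share no library. Over 7354 genes that averaged 10 counts or more, the log2 changes in HL and LL correlated across genes with a Pearson r of 0.66, a description only since genes are not independent replicates. In LL, 12 of 24 heat shock proteins and co-chaperones in its table were higher, with a median of 0.98, and MBF1C changed by 3.74, HSP70 by 2.80 and HSP101 by 2.99 on the log2 scale in LL. CAB2 changed by -2.95, DDF1 by -5.97, AOC3 by -2.28 and RRTF1 by -4.08 in LL, beside -3.31, -5.78, -2.46 and -4.86 in HL. For none of these 7 genes was the difference between HL and LL called.

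The difference itself, the change in HL minus the change in LL, was tested in a joint fit of all 24 libraries over the 10349 genes of both tables. It was called higher for 72 genes (0.696%) and lower for 7 (0.0676%). The groups at 0 h were not alike: at HL 0 h, 428 genes were lower than at LL 0 h (4.14%) and 36 were higher (0.348%), 4.48% in all. Of the 72 genes with a higher difference, 42 were also lower at HL 0 h than at LL 0 h, 38 were called lower in LL, and 32 were called higher in HL. The count of 72 was 142 in the fit of only the compared libraries, and it moved with single libraries, to 11 without HL 1 h replicate 1, 16 without LL 1 h replicate 2, 20 without HL 0 h replicate 2, 21 without LL 0 h replicate 2, 26 without LL 1 h replicate 3, 28 without LL 0 h replicate 1, 34 without LL 1 h replicate 1, 35 without HL 1 h replicate 2 and 38 without HL 0 h replicate 3. Values below are CPM scaled over all 24 libraries together.

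Genes of light and the chloroplast were among those with a higher change in HL and no called gap at 0 h. CGA1 stood at 4.296, 6.21 and 11.96 CPM at LL 0 h, 4.41, 7.12 and 10.98 CPM at LL 1 h, 3.96, 6.58 and 2.88 CPM at HL 0 h, and 46.3, 30.3 and 26.9 CPM at HL 1 h. The HL 1 h libraries stood apart, and the difference was 2.97 ± 0.56 on the log2 scale (edgeR's quasi-likelihood adjusted p = 0.013). SEP2 was at 59.9 to 72.4 CPM and 76.4 to 91.8 CPM in LL, and at 44.7 to 68.1 CPM and 152 to 177 CPM in HL (difference 1.30 ± 0.21, adjusted p = 0.0061). These 2 differences were called in each of 18 alternatives. FD1 was at 517 to 755 CPM and 739 to 787.5 CPM in LL and at 611 to 724 CPM and 1606 to 1701 CPM in HL, a difference of 1.03 ± 0.18 (adjusted p = 0.01) that was under 2-fold without HL 0 h replicate 3 or LL 0 h replicate 1, with a lowest value of 0.87. ELIP1 was at 2.39 to 9.82 CPM and 4.41 to 7.85 CPM in LL and at 5.12 to 7.92 CPM and 19.1 to 34.6 CPM in HL. Its difference of 2.38 ± 0.53 (adjusted p = 0.028) was not called in 8 of 18 alternatives, those that left out replicate 2 or 3 of HL 0 h, or replicate 1 or 2 of HL 1 h, LL 0 h or LL 1 h, with adjusted p up to 0.12. The glucosyltransferases UGT75B1 and UGT73B2 had differences of 1.44 ± 0.31 and 1.68 ± 0.37 (adjusted p = 0.024 and 0.028), and these too were lost in 5 and 8 of the 18.

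For other genes the level at 0 h also differed between HL and LL. RBCS1B was at 775.5 to 1223 CPM and 746 to 878 CPM in LL, and at 238 to 480 CPM and 893 to 1208 CPM in HL. Its difference of 1.86 ± 0.30 (edgeR's quasi-likelihood adjusted p = 0.0061) held in all 18 alternatives, while its level at 1 h in HL was above all 3 LL libraries at 1 h and its level at 0 h was lower in HL by 1.41 on the log2 scale (adjusted p = 0.00089). OPR1, an oxophytodienoate reductase, was at 105, 122.5 and 78.9 CPM and 18.1, 28.5 and 29.8 CPM in LL and at 44.1, 4.38 and 51.9 CPM and 117, 84.8 and 43.6 CPM in HL, and its difference of 3.28 ± 0.57 was called in all 18 alternatives. Its change within HL of 1.23 (adjusted p = 0.05) was lost under DESeq2, the low-count filter and the fit of only the compared libraries, as well as when HL 0 h replicate 1 (1.47) or 2 (0.77) or HL 1 h replicate 1 (0.90) or 2 (1.20) was left out. Among the genes named, the largest difference was that of AT3G14600, a ribosomal protein gene at 57.1, 76.2 and 19.1 CPM at LL 0 h, 3.56 to 7.85 CPM at LL 1 h, 0.565 to 2.92 CPM at HL 0 h and 3.43 to 16.99 CPM at HL 1 h. It differed by 5.50 ± 1.27 (adjusted p = 0.035), and the LL 0 h libraries alone stood high. AT4G28025, ADF3, AT5G02450, AT1G72610, PBG1 and XTH7 also had their highest mean at LL 0 h, and each of these differences was lost in 5 to 10 of the 18 alternatives.

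**Figure D4:**
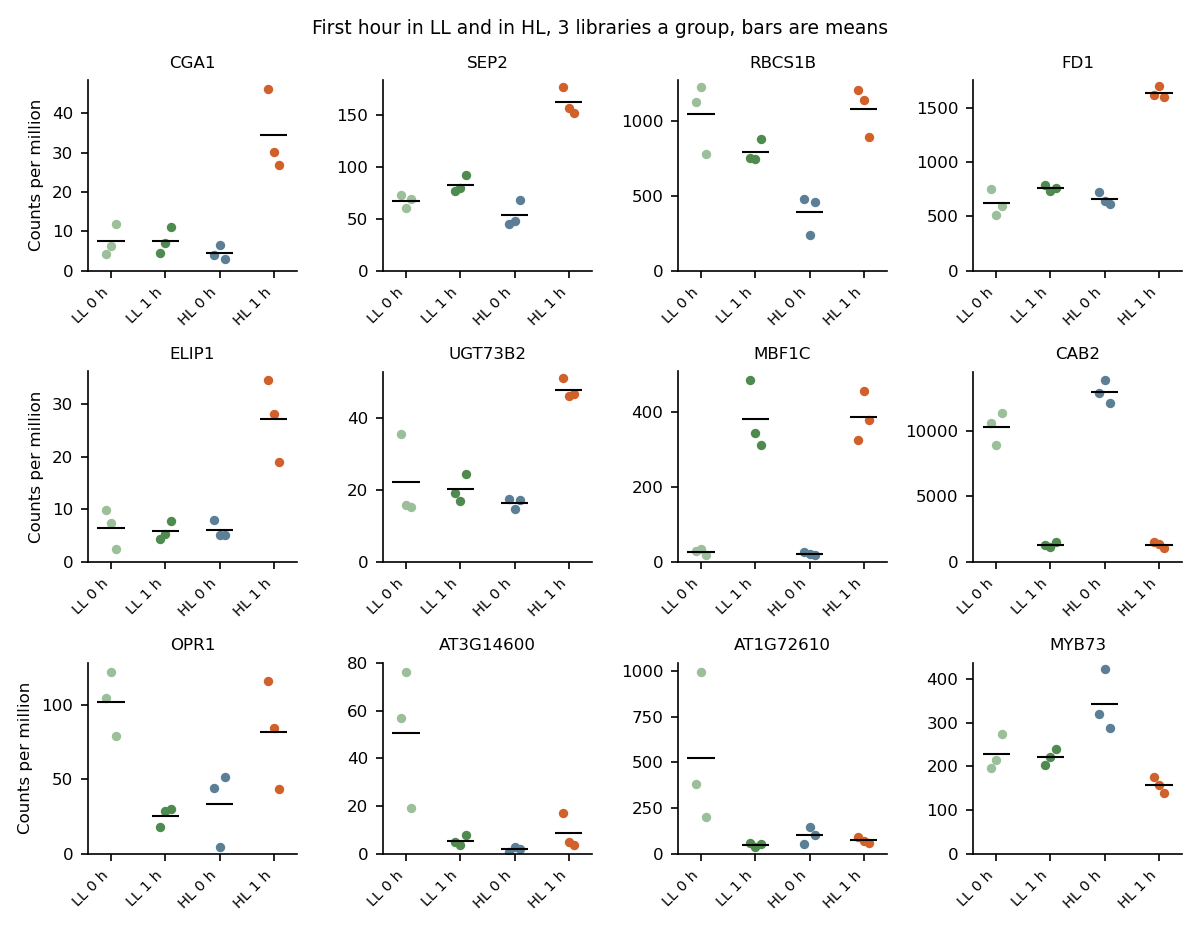
Levels in LL (greens) and HL (blue, 0 h, and orange, 1 h) of 12 genes in CPM scaled over all 24 libraries, each point a library and each line the mean of 3. CGA1, SEP2, FD1, ELIP1 and UGT73B2 are highest at HL 1 h, MBF1C and CAB2 move alike in LL and HL, and AT3G14600 and AT1G72610 are high at LL 0 h.

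Genes with a lower change in HL than in LL were few. MYB73, a transcription factor, was at 195 to 273 CPM and 203 to 239 CPM in LL and at 288 to 422 CPM and 138 to 176 CPM in HL (difference -1.09 ± 0.22, edgeR's quasi-likelihood adjusted p = 0.019). CAF1a, a deadenylase that shortens messenger RNA tails, was at 86.5 to 101 CPM and 48.0 to 60.5 CPM in LL and at 139 to 181 CPM and 38.7 to 51.9 CPM in HL (-1.05 ± 0.23), and PMR6, a pectin lyase-like gene, differed by -1.01 ± 0.23. UGT85A4 and AT5G02540 rose in LL by 1.28 and 1.61 on the log2 scale, AT3G18050 had a change of 0.77 there, and none of the 3 was called in HL (0.19, 0.12 and -0.28), with differences of -1.08, -1.48 and -1.04. Levels of UGT85A4 and CAF1a were higher at HL 0 h than at LL 0 h by 0.66 and 0.75 on the log2 scale, under 2-fold (adjusted p = 0.018 and 0.0035 in edgeR's quasi-likelihood test). For AT3G18050 that gap was 0.25 (adjusted p = 0.46 in the same test). None of these 6 held in every alternative, and leaving out single libraries changed the count of 7 to 1 (HL 0 h replicate 2 or LL 1 h replicate 2), 2 (HL 1 h replicate 1 or LL 1 h replicate 3), 3 (HL 1 h replicate 2 or LL 0 h replicate 2) or 11 (HL 0 h replicate 3).

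Promoters of called genes were then searched for 9 short motifs, in the window from 250 bases before to 50 after the annotated start, on either strand. Of 11166 genes, 11018 had such a window. The rapid stress element CGCGTT was found in 10.14% of 562 promoters of genes called lower, 2.28% of 439 called higher, 3.86% of all genes tested and 3.403% of all annotated protein-coding genes. EXLA3 and DIC2, printed above, are examples among the genes that fell. The I-box GATAAG was found in 24.15% of those called higher, 12.5% of those called lower, 15.66% of all tested and 14.65% of all annotated. The heat shock element was found in 21.6%, 19.0%, 18.5% and 19.3% of the same sets, and in 11 of the 18 heat shock proteins and chaperones that rose, beside 2 of the 8 that were not called. The telo-box AAACCCTA was found in 2.28% and 2.31% of the called sets and 4.98% of all tested, the G-box CACGTG in 9.11%, 9.96% and 9.19%, and CCGAC in 13.4%, 17.1% and 15.9%. Among cold-regulated genes and CBF factors, CCGAC was found in 2 of the 8 called lower, beside 2 of the 7 not called. The evening element AAAATATCT was found in 2.96%, 3.915% and 3.18%, the W-box TTGACC or TTGACT in 31.2%, 37.2% and 32.45%, and the core ACGTG of abscisic acid elements, which the G-box contains, in 36.2%, 33.6% and 29.2%. These are matches of letters and no test was made of them.

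**Figure D5:**
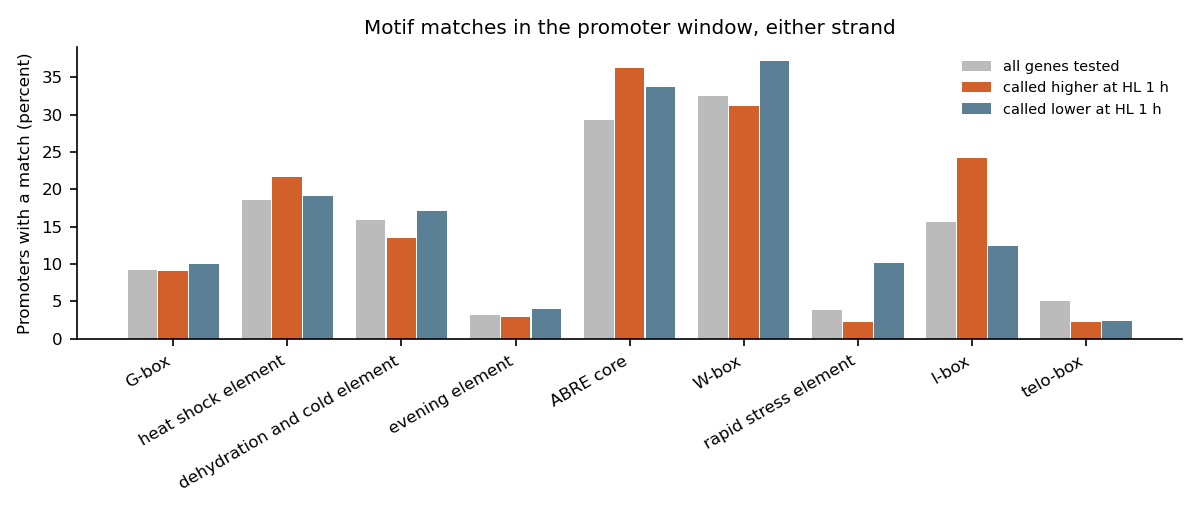
Share of promoter windows with at least 1 match to each motif on either strand, in percent, among all genes tested (grey), genes called higher (orange) and genes called lower (blue) at HL 1 h. The rapid stress element stands at 10.14% in the genes called lower beside 3.86% of all tested, and the I-box at 24.15% in the genes called higher beside 15.66%.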

How the data were processed

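RNA of *Ch1* whole seedlings was read by bulk MARS-seq, a 3' counting method; whether molecular identifiers were collapsed is not given in the sources used here. Per the labels and the study's methods, the authors used bcl2fastq, cutadapt, STAR 2.4.2a, HTSeq and DESeq2, on the Araport reference. The deposited HL and LL tables hold raw counts per gene, with genes kept that had at least 5 reads in a library, counts normalised by the authors (a signal column, divided by size factors) and log2 values (regularised log) made by the authors. They also hold the authors' fold changes and p-values between times, which were not used. Only the raw counts entered the results. The lowest of the genes' highest counts was 6.

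Counts of the 12 HL libraries were fitted together with edgeR 4.0.16 (R 4.3.3) over 11166 genes, with TMM scaling, a quasi-likelihood test and Benjamini-Hochberg adjustment. A call needed an adjusted p under 0.05 and 2-fold. CPM are TMM-scaled, and the SE is that of the log2 fold change. DESeq2 1.42.0 was an alternative. The difference between HL and LL came from a joint fit of all 24 libraries. Other alternatives were RLE and upper-quartile scaling, edgeR's filter on low counts, only the libraries compared, the replicate number as a block, each library left out, and no fold limit. In simulated counts for HL 1 h against 0 h over 11166 genes, 200 genes were changed, none of them among those with the lowest mean counts. Of these, 23.5% were called at 2-fold and 86.5% at 4-fold. Among the genes left unchanged, 6 were called in the 2-fold run and 9 in the 4-fold run. A simulated 2-fold change sits at the fold limit itself, and its median recovered log2 change was 0.95, so the 23.5% reflects that limit as well as power.

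Lists (33, by locus, and marker lists) and members were chosen with earlier results of these data known, and are described by counts and medians. Named genes were the 15 largest changes each way whose libraries did not overlap, with at least 20 CPM in the higher group; the 6 most abundant called genes each way; of each list the 3 called members each way with the smallest p, members of counts of 5 or fewer and the most abundant member not called; the marker genes; and the 8 largest HL and LL differences each way with at least 20 CPM. Some were left out for length. Ratios of groups with 3 or fewer counts carry exact 95% intervals for counting error only, and a group of 0 was set to 3 counts. Symbols and sequences came from RefSeq's TAIR10.1, which matched 11078 locus codes. Replicates of a group differed by 3.55 to 7.03 times the sampling noise (chi-square per degree of freedom), so none was counted as a repeat of another.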

Additional observations from a re-analysis of the deposited data

Results flagged for a closer look

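Results are listed here whose change in the first hour differed between HL and LL by a test of the difference, as HL minus LL on the log2 scale (edgeR's quasi-likelihood test, adjusted p under 0.05 and at least 2-fold). With 3 libraries a group no test for single outlying libraries was made. Among photosynthesis and light genes the differences were 2.97 for CGA1, 2.38 for ELIP1, 1.86 for RBCS1B, 1.30 for SEP2 and 1.03 for FD1. BAM3, a chloroplast beta-amylase of starch breakdown, differed by 1.14: it fell by 1.71 in LL, and its log2 change in HL was -0.58, under 2-fold; the difference was 0.98 without HL 0 h replicate 3, and its adjusted p was 0.051 without HL 1 h replicate 1. In detoxification they were 3.28 for OPR1, 1.68 for UGT73B2 and 1.44 for UGT75B1. Differences of 5.50 for AT3G14600, 5.32 for AT4G28025, 4.96 for ADF3, 4.08 for AT5G02450, 3.10 for PBG1, 3.03 for XTH7 and 3.00 for AT1G72610 belong to genes that were called lower at HL 0 h than at LL 0 h, as were OPR1 and RBCS1B. Lower changes in HL were -1.48 for AT5G02540, -1.09 for MYB73, -1.08 for UGT85A4, -1.05 for CAF1a, -1.04 for AT3G18050 and -1.01 for PMR6. A cause of the gap between the groups at 0 h was not tested.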

How the results depend on the processing

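For HL 1 h against 0 h, the counts of 442 higher and 564 lower genes stayed within 1.5 times under DESeq2 (383 and 460, with 2384 genes given no adjusted p), other scalings, the low-count filter and the fit of only the compared libraries. Leaving out 1 library gave 387 to 463 higher and 461 to 541 lower. Some list counts were smaller by DESeq2. It called 13 jasmonate, 7 cold-regulated and 4 tetrapyrrole genes lower. Higher calls by DESeq2 were 8 in detoxification, 2 in carbon fixation, 3 in rapid stress factors and 0 in cold-regulated genes. With no fold limit 922 were higher and 1046 lower. The share of calls that were higher was 43.9%, and 42.8% to 45.4% under RLE scaling, upper-quartile scaling and DESeq2. For the difference between HL and LL, only the compared libraries gave 142 higher genes, leaving out 1 library gave 11 to 106 higher and 1 to 11 lower, and no fold limit gave 13 lower. Of 136 called genes that the rule named, 100 kept their call in every alternative and none changed direction. Nothing in the labels says that replicate numbers pair the libraries. Same-numbered libraries deviated with correlations of 0.099, -0.027 and -0.147, beside -0.211 to 0.230 for differently numbered ones. With 3 libraries a group these values cannot settle whether libraries are paired. The replicate block gave 469 higher and 556 lower, and 86 and 7 for the difference. Depth limits genes near 3 counts a group, where ratios carry wide intervals.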
